A study of Mus musculus with 8 samples.

Results

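The genes described here carry signals from immunoreceptors, the surface receptors of blood cells that signal through a tyrosine motif called ITAM. They are Syk and 9 of its partners, namely Btk, Plcg1, Plcg2, Lcp2, Lat, Ptpn6, Inpp5d, Fcer1g and Tyrobp, so 10 genes of the 24015 in the count table. Syk was chosen by its measured values, since it was higher in Sl/Sl endothelium and lower in Sl/Sl hematopoietic clusters than in wild type. The partners were added as members of the same pathway. All 10 genes passed the filter on low counts, which left 13908 genes.

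RNA was sequenced from cells of the mouse E11.5 aorta–gonad–mesonephros region with its vitelline and umbilical arteries (AGM+VU; the tissue labels name the dorsal aorta). Both sorts took VE-Cadherin+ cells without Ter119. Those positive for Kit made up the hematopoietic clusters, and those negative for Kit, CD41 and CD45 the endothelium, in wild type and in Sl/Sl embryos. The Sl/Sl embryos carry a germline deletion that takes in Kitl, the gene for Kit ligand, so it is missing from every tissue and not from the endothelium alone. Each of the 4 combinations had 2 libraries of 100 cells. The cells came from pools of up to 4 embryos of 1 genotype in 2 sorting experiments, and which library belonged to which experiment is not given in the sources used here.

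In ITAM signaling, a receptor pairs with a small adaptor such as FcRγ or DAP12, whose ITAM tyrosines are phosphorylated by Src family kinases and then bound by Syk. Syk phosphorylates scaffolds that gather Btk and phospholipase Cγ, which releases calcium and activates protein kinase C. The phosphatases SHP-1 and SHIP1 oppose the signal. The pathway is best known in mast cells, macrophages, B cells and platelets, and Syk acts in platelets when blood and lymphatic vessels separate.

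Promoter sequences are shown for all members with an entry that were lower in endothelium than in clusters, with or without the motif searched, since these genes differed together. RefSeq promoters on GRCm38.p6 (250 bases before to 50 after a start) existed for 9 members, 2 of them for Syk; Tyrobp had none. Each of the 10 promoters matched the NCBIM37 genome, the mm9 build of the counts, exactly once. The start lay on the first base of an exon used for counting in both Syk promoters and in those of Btk, Plcg1, Ptpn6, Inpp5d and Fcer1g. Below are the 100 bases around the start on mm9, 5′ to 3′ on the gene's strand, with GAGGAA, a core of sites bound by the myeloid factor PU.1, in capitals on either strand (TTCCTC on the reverse).

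Syk first promoter, chr13:52678756-52678855 (+): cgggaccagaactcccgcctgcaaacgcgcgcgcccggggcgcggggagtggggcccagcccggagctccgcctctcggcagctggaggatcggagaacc
Syk second promoter, chr13:52692201-52692300 (+): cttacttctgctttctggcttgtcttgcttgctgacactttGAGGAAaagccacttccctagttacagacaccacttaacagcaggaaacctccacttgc
Btk, chrX:131117630-131117729 (-): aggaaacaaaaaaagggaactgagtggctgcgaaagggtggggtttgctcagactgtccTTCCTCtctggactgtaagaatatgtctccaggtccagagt
Plcg2, chr8:120022125-120022224 (+): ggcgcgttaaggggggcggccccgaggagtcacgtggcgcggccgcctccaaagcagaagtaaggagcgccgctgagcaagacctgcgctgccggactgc
Lcp2, chr11:33946878-33946977 (+): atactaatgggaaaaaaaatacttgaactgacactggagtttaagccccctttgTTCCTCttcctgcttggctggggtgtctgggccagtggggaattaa
Ptpn6, chr6:124688678-124688777 (-): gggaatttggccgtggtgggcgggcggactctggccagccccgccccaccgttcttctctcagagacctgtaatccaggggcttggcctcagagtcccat
Inpp5d, chr1:89516837-89516936 (+): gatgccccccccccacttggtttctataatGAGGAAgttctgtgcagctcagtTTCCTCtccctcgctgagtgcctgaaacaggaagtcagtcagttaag
Fcer1g, chr1:173164431-173164530 (-): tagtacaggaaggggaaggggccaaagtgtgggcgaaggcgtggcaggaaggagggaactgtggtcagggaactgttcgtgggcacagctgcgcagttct

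GAGGAA was present in the 300 bases of 5 members, against 28.3% of all 32851 promoters of that length. With the first transcribed base as +1, it began at -9 in the second Syk promoter, at 10 in Btk, at 5 in Lcp2 and at -20 and 4 in Inpp5d. Lat, which did not pass the test between the cell types given below, held it at -113, and Fcer1g, Ptpn6, Plcg1 and Plcg2 held none. The RUNX core TGTGGT was in Lat and Fcer1g (16.8% of all promoters), and the GATA core AGATAA in Plcg2 and Lcp2 (11.2%). These are letter matches and carry no evidence of binding.

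Counts on genes summed to between 8933236 and 13428214 per library. In endothelium, the Kitl gene was read 1250 and 923 times in wild type against 6 and 2 times in Sl/Sl, and in clusters 110 and 0 times against 1 and 3 times. The library of wild type clusters replicate 2, with 0 counts of Kitl, also had the lowest summed level of 12 endothelial markers among all libraries (354 CPM, counts scaled to library totals with TMM factors). Endothelial markers summed to between 354 and 2504 CPM in clusters and between 5481 and 6318 CPM in endothelium, and 12 hematopoietic markers to between 1600 and 3383 CPM in clusters and between 265 and 309 CPM in endothelium. Other blood cells were represented unevenly in the clusters. Macrophage markers summed to between 273 and 881 CPM, megakaryocyte markers to between 200 and 1697 CPM and mast cell markers to between 57.0 and 1970 CPM, the last mostly from Cpa3, while Tpsb2, Tpsab1 and Mcpt4 were at 0 in all libraries. In the endothelium these 3 lists reached at most 35.2, 36.9 and 8.42 CPM. Erythroid markers summed to between 24.4 and 266 CPM and lymphoid markers to between 9.76 and 176 CPM over all libraries.

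The first question was how the pathway divides between the cell types. The ITAM adaptors Fcer1g and Tyrobp, the scaffold Lcp2 and the phosphatase Ptpn6 were between 57.1-fold and 123-fold lower in endothelium than in clusters, while Plcg2 and Inpp5d fell less, by 2.43-fold and 2.37-fold. The largest falls were those of Tyrobp (log2 −6.95) and Lcp2 (log2 −6.78, on 2 to 17 counts in endothelium), whereas Lat and Plcg1 did not pass the test. Of the 10 members, 8 were lower in endothelium and 0 higher at an adjusted p under 0.1 in edgeR's quasi-likelihood test (Benjamini-Hochberg over all genes, endothelium minus clusters averaged over the genotypes). Over all genes tested, 8.12% were lower and 8.48% higher by this rule. Btk, with 2 to 6 counts in endothelium, could pass the filter on low counts only through the clusters, so the count of 8 leans toward falls by that gene. The median log2 fold change of the members was −4.03, against −0.067 for all genes. All 4 endothelium libraries lay below all 4 cluster libraries in 7 members and in 9.57% of all genes. In sorted bulk samples, fewer cells that express a gene and less RNA of it per cell cannot be told apart. The average over genotypes was taken because it does not use the genotype difference by which Syk was chosen. Of the 9 partners, 7 passed within wild type alone (3.68% of all genes were lower there) and 4 within Sl/Sl alone (1.84% of all genes), namely Fcer1g, Tyrobp, Lcp2 and Ptpn6. Syk is left out of these counts, since its choice widens the first contrast and narrows the second.

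**Figure D1:**
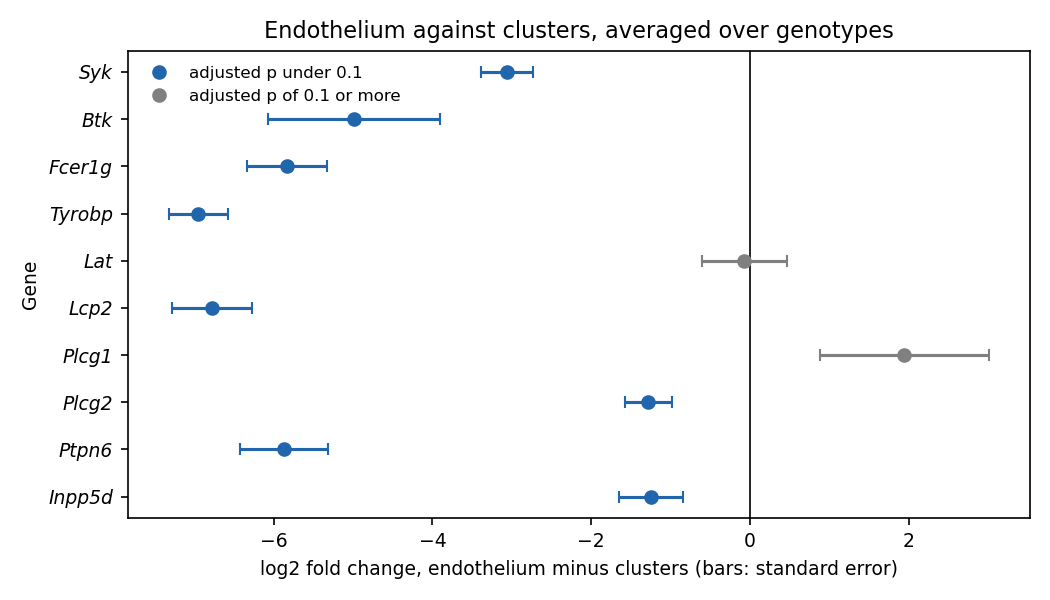
log2 fold change of each gene in endothelium minus clusters, averaged over wild type and Sl/Sl (points, with standard errors from the edgeR fit of all 8 libraries as bars; blue, adjusted p under 0.1). Of the 10 genes, 8 lie left of 0 past the threshold, with Tyrobp furthest at −6.95, while Lat and Plcg1 do not pass.

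The ITAM adaptors stood at the top of the clusters. Fcer1g, which encodes FcRγ, the signal chain of Fc receptors, had 292 and 484 CPM in wild type clusters, 242 and 328 in Sl/Sl clusters, 9.53 and 3.13 in wild type endothelium, with 2.63 and 8.10 in Sl/Sl endothelium. Tyrobp, which encodes DAP12, the partner of TREM receptors, had 168 and 366 CPM in wild type clusters, 215 and 222 in Sl/Sl clusters, 2.62 and 2.42 in wild type endothelium, with 1.14 and 1.91 in Sl/Sl endothelium. Every cluster library was above every endothelium library, and the genotypes overlapped in clusters. The difference was −5.84 for Fcer1g (log2, standard error 0.50, edgeR adjusted p = 0.000253) and −6.95 for Tyrobp (standard error 0.38, adjusted p = 5.97e-05). Per exon length, Fcer1g stood at 534 ± 159 RPKM (SD, 4 libraries of 2 genotypes) and Tyrobp at 446 ± 149 RPKM in clusters, ranges that overlap.

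Syk, the kinase that binds phosphorylated ITAMs, covers 52678806 to 52744161 on chromosome 13 of mm9. Its counts gave 129 and 107 CPM in wild type clusters, 44.4 and 55.6 in Sl/Sl clusters, 3.58 and 3.84 in wild type endothelium, with 26.1 and 19.3 in Sl/Sl endothelium. The 4 groups did not overlap one another, and ran from wild type clusters through Sl/Sl clusters and Sl/Sl endothelium to wild type endothelium. Averaged over genotypes, Syk was 8.36-fold lower in endothelium (log2 −3.06, standard error 0.33, edgeR adjusted p = 0.000751). The log2 difference was −4.99 in wild type and −1.14 in Sl/Sl, a gap that restates how the gene was chosen. Btk, the Tec family kinase mutated in human X-linked agammaglobulinemia, had 16.1 and 26.8 CPM in wild type clusters, and 12.4 and 2.03 in Sl/Sl clusters. The endothelium libraries held 6 and 5 counts (wild type) and 4 and 2 (Sl/Sl). Its difference of −4.99 (log2, standard error 1.09, adjusted p = 0.0204 in edgeR's test) therefore rests on endothelium values close to the limit of 3 counts that a count of 0 allows.

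The scaffolds split. Lcp2 encodes SLP-76, on which Btk and phospholipase Cγ assemble, and was the steadiest member in clusters, at 61.8 and 71.0 CPM in wild type against 73.2 and 72.8 in Sl/Sl. Its endothelium counts were 11 and 17 (wild type) and 4 and 2 (Sl/Sl), and it was 110-fold lower there than in clusters (log2 −6.78, standard error 0.50, adjusted p = 0.000126 in edgeR's test). Lat, the membrane scaffold that works with SLP-76 in T cells, mast cells and platelets, had 18.97, 31.7, 16.8 and 37.5 CPM in the cluster libraries, wild type first, and 27.6, 23.5, 11.46 and 37.3 in the endothelium libraries in the same order. The cell types overlapped throughout, with a difference of −0.072 (log2, standard error 0.54, adjusted p = 0.968 in edgeR's test). Lat exons shared no base with the exons of another gene in the table, and the same held for the other 9 members. With 19.3 ± 8.14 RPKM (SD, 4 libraries), Lat was the second highest member in endothelium per exon length, after Plcg2.

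Plcg1 and Plcg2 encode the phospholipases Cγ1, which is broadly expressed and acts below VEGF receptors, and Cγ2, which is prominent in blood cells. Plcg2 had 335 and 213 CPM in wild type clusters, 168 and 201 in Sl/Sl clusters, 130 and 61.9 in wild type endothelium, with 106 and 73.2 in Sl/Sl endothelium. The cell types did not overlap, but the difference was among the smallest of those called (log2 −1.28, standard error 0.29, adjusted p = 0.0245 in edgeR's test). Plcg1 had 0.086 and 7.47 CPM in wild type clusters, 12.5 and 5.31 in Sl/Sl clusters, 20.2 and 17.2 in wild type endothelium, with 9.54 and 43.9 in Sl/Sl endothelium. The libraries overlapped, and its log2 difference of 1.94 (standard error 1.06) did not pass (adjusted p = 0.282 in edgeR's test). That value turns on the wild type cluster libraries, 1 of which had 1 count and the other 96; without replicate 2 it was 4.56 and passed. Per exon length, Plcg2 made up between 93.3% and 99.98% of the sum of both genes in clusters, and between 63.2% and 91.9% in endothelium.

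Of the phosphatases, Ptpn6, which encodes SHP-1, had 214 and 329 CPM in wild type clusters, 236 and 191 in Sl/Sl clusters, 1.99 and 2.73 in wild type endothelium, with 2.10 and 12.4 in Sl/Sl endothelium. It was 58.6-fold lower in endothelium (log2 −5.87, standard error 0.55, adjusted p = 0.000392 in edgeR's test). Inpp5d encodes SHIP1, the lipid phosphatase that removes the product of PI3 kinase. It had 78.7 and 79.7 CPM in wild type clusters, 47.0 and 29.2 in Sl/Sl clusters, 11.0 and 28.3 in wild type endothelium, with 29.7 and 25.0 in Sl/Sl endothelium. The cell types met at 29.2 and 29.7 CPM, and the difference of −1.25 (standard error 0.41, adjusted p = 0.0874 in edgeR's test) no longer passed when any library but wild type endothelium replicate 2 was left out, although its size stayed between −1.67 and −0.98.

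**Figure D2:**
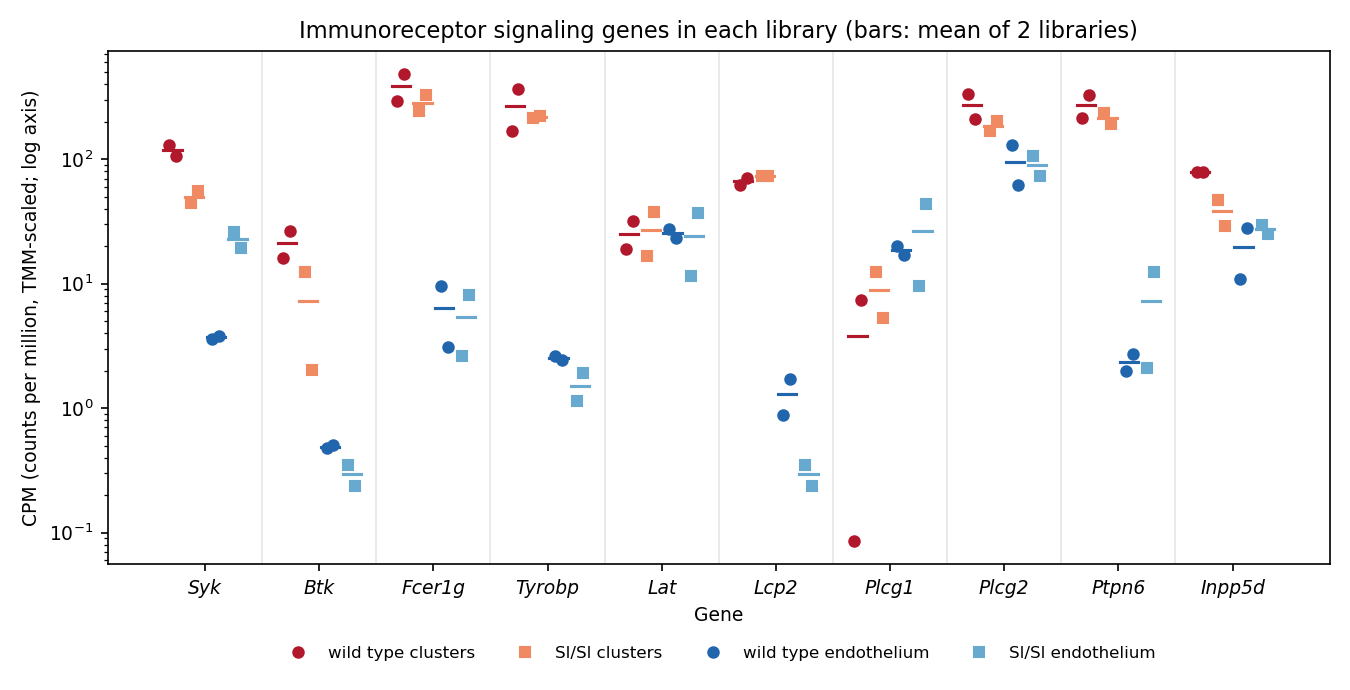
CPM of each gene in each of the 8 libraries on a log axis (circles, wild type; squares, Sl/Sl; red shades, clusters; blue shades, endothelium; bars, mean of 2 libraries). Fcer1g, Tyrobp, Lcp2 and Ptpn6 separate every cluster library from every endothelium library by over 10-fold, Lat overlaps between them, and the 4 groups of Syk do not overlap.

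Ordered by mean RPKM over 4 libraries, the clusters ran from Fcer1g (534), Tyrobp (446), Ptpn6 (104) and Plcg2 (56.1) to Lat (22.3), Lcp2 (21.8), Syk (16.7), Inpp5d (12.4), Btk (5.87) and Plcg1 (1.47). Neighbours in this order overlapped, except that Tyrobp lay above Ptpn6 and Plcg2 above Lat in every library. In endothelium the order was Plcg2 (20.7), Lat (19.3), Fcer1g (8.52), Plcg1 (4.87), Inpp5d (4.53), Tyrobp (3.42), Syk (2.39), Ptpn6 (1.87), Lcp2 (0.23) and Btk (0.15). Only Ptpn6 and the gene after it, Lcp2, did not overlap there. The largest means in clusters were thus those of adaptors, and in endothelium those of Plcg2 and Lat.

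Some members were set against a related gene within each library, so that library scaling does not enter. The log2 ratio of Ptpn6 to Ptpn11, which encodes the broadly expressed phosphatase SHP-2, ran from 2.32 to 4.12 in clusters and from −3.44 to −0.93 in endothelium, per exon length and with 0.5 added to each count. Ptpn11 itself was at 55.9 ± 23.8 CPM in clusters and 53.6 ± 3.86 CPM in endothelium (SD, 4 libraries each). Btk to Tec, another Tec family kinase, ran from −3.54 to 0.21 and from −6.07 to −5.69. The ratio of Inpp5d to Inppl1, the gene of SHIP2, ran from 3.60 to 6.65 in clusters and from 1.59 to 3.75 in endothelium, so the ranges touched. Lat to Lat2, an adaptor of B and myeloid cells, was higher in endothelium (2.64 to 3.69) than in clusters (−0.29 to 1.29), with Lat2 lower in endothelium (log2 −2.55, adjusted p = 0.0654 in edgeR's test). Fcer1g to Tyrobp overlapped between the cell types, at −0.045 to 0.58 in clusters and 0.15 to 1.84 in endothelium. The partners of Syk and Lcp2 in such pairs, Zap70 and Blnk, had at most 59 and 114 counts in any library and are given by these limits only.

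**Figure D3:**
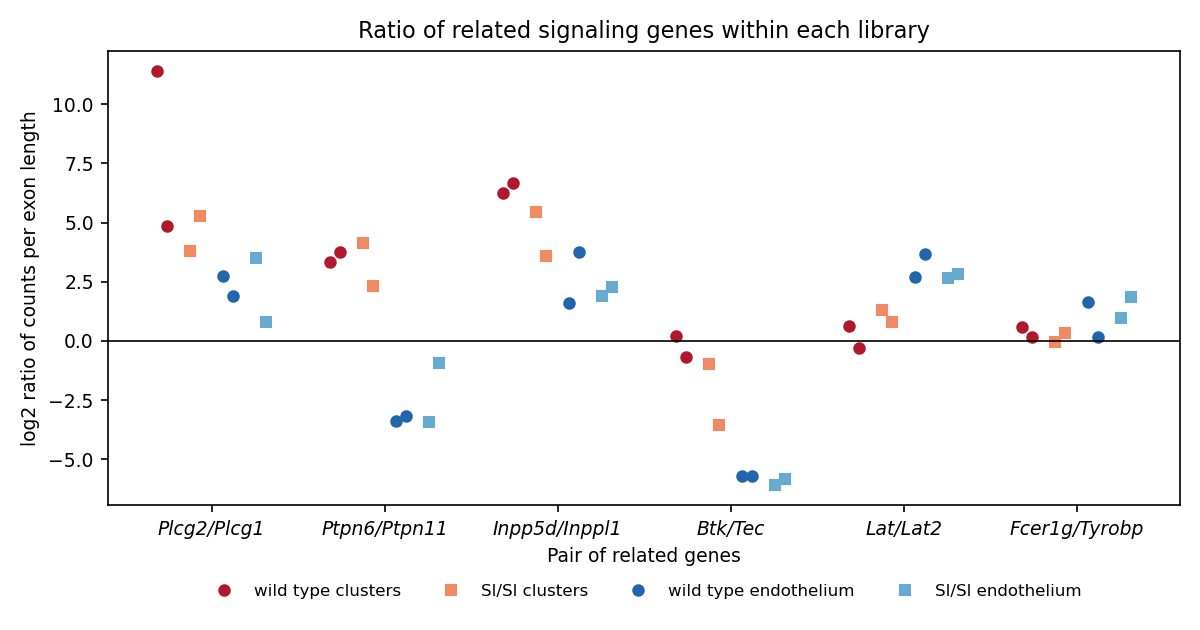
log2 ratio of counts per exon length between related genes within each of the 8 libraries (circles, wild type; squares, Sl/Sl; red shades, clusters; blue shades, endothelium). Ptpn6/Ptpn11 is above 0 in all cluster libraries and below 0 in all endothelium libraries, and Lat/Lat2 runs the other way, from −0.29 to 1.29 in clusters against 2.64 to 3.69 in endothelium.

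The rest of the pathway was followed by role in 116 further genes, of which 100 passed the filter on low counts. A gene at 0 in endothelium could pass only through the clusters, so these counts lean toward falls. In the same edgeR comparison 42 were lower and 6 higher in endothelium, with a median log2 difference of −4.15 among those tested, against 8.12% lower and 8.48% higher over all genes. The total of 48 became 29 without Sl/Sl clusters replicate 2, 25 in wild type alone and 13 in Sl/Sl alone, where 1146 and 393 of all 13908 genes passed in either direction. Of 12 proximal kinases tested, 2 were lower and 1 higher, to be read against those shares of all genes. Fgr, a myeloid kinase of the Src family, had 41 to 224 counts in clusters and at most 3 in endothelium. Yes1, a broadly expressed member of that family, was higher in endothelium (log2 1.33, adjusted p = 0.0979 in edgeR's test). Lyn and Fyn, also of that family, had at least 624 and 669 counts in every library.

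Of 18 adaptors and scaffolds tested, 8 were lower and 1 higher in endothelium (all genes, 8.12% lower and 8.48% higher). Grap2, which links LAT to SLP-76, had 90 to 399 counts in clusters and 1 to 3 in endothelium. Fyb, which binds SLP-76, had 312 to 772 and 3 to 9. Hcst, the DAP10 adaptor, had 46 to 422 and 1 to 39, while Clnk and Bank1, each called, reached 1 count at most in endothelium and were as low as 1 in a cluster library. Nck1, an adaptor to the actin skeleton, was the gene that was higher (log2 1.01, standard error 0.23, adjusted p = 0.0247 in edgeR's test).

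Of 21 effectors tested, 8 were lower and 3 higher (all genes, 8.12% lower and 8.48% higher). Vav1, the exchange factor of blood cells, had 311 to 692 counts in clusters and 2 to 9 in endothelium. Pik3cd, the leukocyte PI3 kinase subunit, had 83 to 730 and 0 to 26, Pik3r5 51 to 361 and 0 to 99, and the calcineurin target Nfatc2 7 to 214 and 0 to 45. The 3 that were higher in endothelium were the calcium channel genes Itpr2 (43.2 ± 11.7 against 8.83 ± 7.36 CPM, SD, 4 libraries each) and Itpr3 (52.9 ± 20.8 against 12.2 ± 2.32 CPM), and Rasgrp3 (157 ± 46.5 against 42.1 ± 16.7 CPM), a Ras activator that responds to the lipid product of phospholipase C. Their adjusted p-values lay between 0.0107 and 0.0260 in edgeR's test.

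Among negative regulators 6 of 15 tested were lower in endothelium and 0 higher (all genes, 8.12% lower and 8.48% higher). Ptprc, which encodes CD45, had 6 to 16 counts in endothelium and 1294 to 3908 in clusters. The endothelium was sorted as negative for CD45, and the part of that gate in the difference was not tested. The adaptors Sla and Sla2, which damp antigen receptors, had 550 to 1279 and 110 to 606 counts in clusters, and 3 to 11 and 1 to 10 in endothelium. Ptpn22 and Ubash3a, both phosphatase family genes of lymphocytes, had at most 5 counts each in endothelium.

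Of 19 ITAM-linked receptor genes tested, 9 were lower in endothelium and 0 higher (all genes, 8.12% lower and 8.48% higher). Fcgr1, an Fc receptor gene that needs FcRγ, had 92 to 178 counts in clusters and at most 1 in endothelium. Gp6, the FcRγ-coupled collagen receptor of platelets, was at 0 in all endothelium libraries and between 0 and 417 counts in clusters, so its mean in clusters was at least 50.4-fold higher, taking 3 counts per endothelium library as the limit that a count of 0 allows. Siglech, Ms4a2 and Cd3g, also called, had at most 2, 1 and 5 counts in endothelium and could pass the filter only through the clusters, where Siglech and Ms4a2 were themselves at 0 in at least 1 library. Clec1b, the gene of the Syk-coupled receptor CLEC-2, was singled out after its values were seen. It had 1267 to 2148 counts in endothelium and 171 to 1546 in clusters, with a log2 difference of 1.48 (standard error 0.52) that did not pass (adjusted p = 0.110 in edgeR's test).

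Of 15 receptor genes with the inhibitory ITIM motif, which recruits SHP-1, 9 were lower and 1 higher in endothelium. Over all genes 8.12% were lower and 8.48% higher. Pirb, Lilrb4 and Cd33 had at least 25, 70 and 199 counts in every cluster library and at most 2, 2 and 6 in endothelium. Treml1 and Clec4a2, also called, ran from 4 to 810 and from 0 to 212 counts in clusters, with at most 4 each in endothelium. Pecam1, the ITIM receptor of endothelial junctions, was the gene that was higher, at 712 ± 66.2 CPM in endothelium against 190 ± 118 CPM in clusters (SD, 4 libraries each; adjusted p = 0.00386 in edgeR's test).

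The second question was how these genes differed between Sl/Sl and wild type in each cell type. Syk was selected on exactly these values, so they are given as a description. In endothelium both Sl/Sl libraries lay above both wild type libraries, with a log2 difference of 2.61 (standard error 0.46), and in clusters both lay below, with −1.24 (standard error 0.43). The difference between these was 3.85 (standard error 0.63). With each library left out in turn, the endothelium value ran from 2.38 to 2.80 and the cluster value from −1.41 to −1.09.

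No partner of Syk passed the threshold in either cell type (adjusted p = 1 for each in edgeR's quasi-likelihood test), as for 0% of all genes in both comparisons. An unadjusted p under 0.05 was reached in endothelium by 2 partners, Ptpn6 and Lcp2 (4.16% of all genes), and in clusters by 0 (4.22% of all genes). DESeq2 on all libraries called 0 of the partners in either cell type, against 179 of all 17077 genes in endothelium and 175 in clusters. The paper, with DESeq2 and the same threshold, reported more genes differing by genotype in clusters than in endothelium, where it described few changes. The DESeq2 counts of 175 in clusters and 179 in endothelium did not show that balance, and the cause was not tested. Without the filter on low counts, edgeR called Ptpn6 in endothelium, where 65 of 17077 genes passed. With 2 libraries against 2, exact permutation could not give a two-sided p below 0.333 for any 1 gene.

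Leaving Syk aside, the genotypes did not overlap in endothelium in 3 of the 9 partners, against 28.5% of all genes, a share near that background. Btk, Lcp2 and Tyrobp were the 3, all lower in Sl/Sl. Lcp2, at 0.87 and 1.72 CPM in wild type against 0.35 and 0.24 in Sl/Sl, had a log2 difference of −2.07 (standard error 0.68) on counts of 2 to 17. Ptpn6 had a difference of 1.61 (standard error 0.69), which came from Sl/Sl replicate 2, with 104 counts against 24 to 27 in the other endothelium libraries; without it the value was −0.17. Fcer1g, Inpp5d, Lat, Plcg1 and Plcg2 lay between −0.27 and 0.52. Tyrobp was at −0.75 (standard error 0.48). Macrophages express Fcer1g and Tyrobp, and their markers summed to between 15.2 and 35.2 CPM in wild type endothelium and between 7.09 and 20.4 CPM in Sl/Sl endothelium, with 4 to 10 of 13 genes detected and C1qa at 0 in 3 of the 4 libraries. Megakaryocyte markers summed to between 17.2 and 36.9 CPM in wild type and between 12.4 and 18.1 CPM in Sl/Sl endothelium. Their part in these values was not tested.

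In clusters the genotypes did not overlap in 4 of the 9 partners, against 32.7% of all genes. Btk, Plcg2 and Inpp5d were lower in Sl/Sl and Lcp2 was higher, the last by 0.14 (log2, standard error 0.53). Inpp5d had a log2 difference of −1.05 (standard error 0.57), Plcg2 one of −0.57 (standard error 0.41) and Btk one of −1.57 (standard error 1.31), the last moving to −0.79 without Sl/Sl replicate 2 and to −3.40 without Sl/Sl replicate 1. Fcer1g, Tyrobp and Ptpn6 were at −0.44, −0.29 and −0.35, with overlap; Tyrobp was at 0.37 without wild type clusters replicate 2. Plcg1, at 1.23 (standard error 1.48), was at 6.51 without that library, against a lone library with 1 count. Hematopoietic markers summed to between 2095 and 3383 CPM in wild type clusters and between 1600 and 2191 CPM in Sl/Sl clusters. Endothelial markers summed to between 354 and 1087 CPM and between 641 and 2504 CPM, and their part in the cluster values was not tested.

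**Figure D4:**
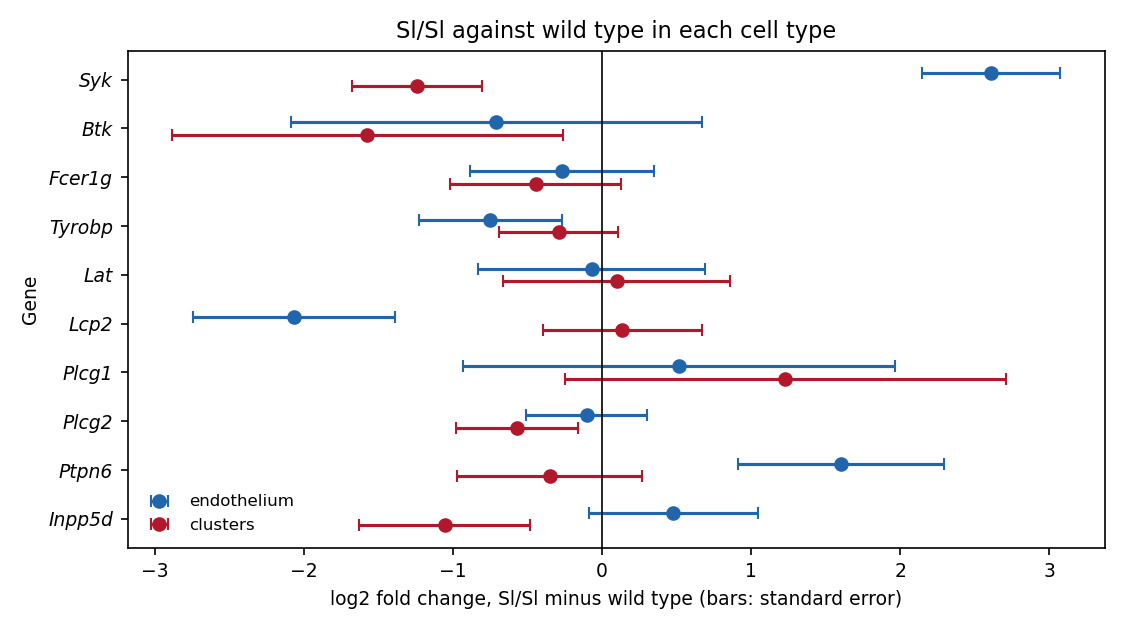
log2 fold change of each gene in Sl/Sl minus wild type, in endothelium (blue) and in clusters (red), with standard errors from the edgeR fit of all 8 libraries as bars. Syk, chosen for this pattern, lies at 2.61 in endothelium and −1.24 in clusters, and for each of the other 9 genes at least 1 bar crosses 0.

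Beside Syk, chosen for it, opposite directions without overlap in both cell types were seen in 1 of the 9 partners, Lcp2, and in 4.92% of all genes. The interaction of genotype and cell type called 0 of the partners and 0% of all genes in edgeR's test. There Lcp2 had a p of 0.0297 before adjustment and 0.902 after it; DESeq2 called no partner either, and edgeR without the filter called Ptpn6. Over the 8 libraries, the tested genes outside the pathway whose log2 CPM was most like that of Syk were Ptgs1, Samhd1, Myo5a, Mcm5 and Crls1, with Pearson r from 0.97 to 0.98. Ptgs1 had 1137 and 1031 counts in wild type clusters, 878 and 745 in Sl/Sl clusters, 127 and 65 in wild type endothelium, with 409 and 212 in Sl/Sl endothelium. Among the members r with Syk ran from −0.64 for Plcg1 to 0.86 for Ptpn6. These points share cell type and genotype, and r is a description.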

How the data were processed

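The authors prepared SMARTSEQ2 libraries, aligned reads with STAR (version 2.4.2a) to mm9 and, after merging lanes, counted them per gene with featureCounts of Subread 1.4.5. Annotation, strand setting and the handling of multi-mapping reads are not given in the sources used here. The deposited values are raw counts, from PCR-amplified cDNA without molecular identifiers, so limits from counts cover counting error only. From these counts, low genes were dropped by filterByExpr over 4 groups, and the rest were scaled with TMM factors and tested with edgeR 4.0.16 (quasi-likelihood, R 4.3.3) in 1 fit of all 8 libraries, with Benjamini-Hochberg adjustment over all genes and the threshold of 0.1 used in the study. Standard errors are the log2 fold change divided by the square root of F. CPM used TMM-scaled totals, RPKM plain totals, and log2 CPM a prior count of 2. DESeq2 1.42.0 was an alternative. The median library total was 11942635 counts. Replicates are separate libraries of pooled embryos, so p-values measure the spread between such pools. The script for the main test was run on simulated data for the comparison of endothelium with clusters only, with no outcome given here. The genotype and interaction comparisons were not simulated.

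Named were the 10 members, up to 5 falls and rises per role among called pathway genes, the related genes of 8 pairs, 5 genes most like Syk and markers that bear on a label. The members and lists were chosen with earlier results of these data known. Alternatives were RLE factors, DESeq2, other filters, an adjusted p of 0.05, a replicate block, each genotype alone, TMM-scaled RPKM and leaving out each library. Some genes that the naming rule would give are not reported here.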

Additional observations from a re-analysis of the deposited data

Results flagged for a closer look

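In 2 of the 10 genes, Syk and Lcp2, the genotypes did not overlap in either cell type and differed in opposite directions. Over all genes tested, 4.92% had that pattern. Syk was the gene chosen for this, and the difference between the cell types (log2, Sl/Sl against wild type in endothelium minus the same in clusters) was 3.85, given as a description for that reason. Lcp2 had a difference of −2.20, in the other direction, with 2 to 17 counts per library in endothelium. Its genotype difference in clusters was only 0.14 (log2, standard error 0.53). Lcp2 did not pass in edgeR's test of the interaction (adjusted p = 0.902).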

How the results depend on the processing

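Between endothelium and clusters, 8 of the 10 genes passed under RLE factors, DESeq2 and no filter on low counts. In wild type alone there were 8 too, but the pass of Syk there is no evidence, since its choice widens that contrast. At an adjusted p of 0.05 there were 7, and in Sl/Sl alone 4. With at least 10 counts in every library, 7 of the 10 were tested and 6 passed (1839 of all 8987 genes tested). Btk, Lcp2 and Plcg1, with as few as 2, 2 and 1 counts in a library, were not tested there. Of these, Btk and Lcp2 were called in the main fit. With the replicate block 7 passed, Inpp5d being lost; deviations of same-numbered libraries correlated at −0.11 to 0.16, so the numbers were not shown to pair libraries. RLE factors shifted the median of all genes by at most −0.029 and changed no call among the 10 genes and 47 pathway genes passed. The 48 pathway genes called became 62 with DESeq2, 19 with at least 10 counts in every library (fewer genes tested), 25 in wild type alone, 13 in Sl/Sl alone and 29 to 48 without 1 library. Over all genes the 2310 calls became 3616 with DESeq2, 1488 at an adjusted p of 0.05, 1146 in wild type alone and 393 in Sl/Sl alone. For genotype in endothelium and for the interaction, DESeq2 called 1 of the 10 genes (Syk), and edgeR without a filter 2 (Syk and Ptpn6), where the calls of Syk rest on the values it was chosen by and are no evidence; over all genes the 0 calls became 179 and 65 in endothelium, 175 and 253 in clusters, and 175 and 179 in the interaction, and the cause was not tested.

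Without 1 library, 25 log2 differences changed sign, none of them called, 287 kept sign and call, and the cause was not tested. Lat ran from −0.62 to 0.27 between cell types, −1.16 to 0.55 by genotype in endothelium, −0.59 to 0.57 in clusters and −1.28 to 0.52 in the interaction. By genotype in endothelium, Fcer1g ran from −1.28 to 0.76, Inpp5d from −0.047 to 1.33, Plcg1 from −0.98 to 1.24, Plcg2 from −0.53 to 0.53 and Ptpn6 from −0.17 to 2.401. Tyrobp in clusters ran from −0.74 to 0.37. In the interaction, Fcer1g ran from −0.86 to 1.20 and Plcg1 from −6.00 to 0.26. RPKM with TMM-scaled totals moved 4 of 40 group means by over 1 SD. Counts of 2 to 17 in endothelium limit Btk and Lcp2 there.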
